A study of Drosophila melanogaster with 10 samples.

Results

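The genes described here are 10 classical eye and body pigment loci of Drosophila melanogaster, w (white), bw (brown), st (scarlet), v (vermilion), cn (cinnabar), pr (purple), se (sepia), ry (rosy), y (yellow) and e (ebony), which fly geneticists also use as visible markers of transgenes and strains. They were found by gene symbol among the 13986 genes of the deposited tables, and all 10 were present. The set was chosen by its known role with the levels of these same libraries already in view, so the differences of these genes from the control are given as a description with no test.

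RNA was sequenced from oenocytes, the abdominal cells that make cuticular hydrocarbons, dissected from adult males kept at 29 °C for 7 days after eclosion (25 °C before it), with 2 libraries for each of 5 genotypes. Every genotype carried the oenocyte driver prom-E800-Gal4. The control had UAS-mCD8-GFP beside it. The other groups had one of 3 hairpins against fru, a gene for BTB zinc-finger transcription factors (oeno>fru IR from VDRC330035, oeno>fru IR-2 from BDSC#31593, oeno>fru IR-3 from VDRC105005), or UAS-FruCOMB (oeno>fru OE), and the labels name GFP in the control alone. The paper calls the 2 libraries of a genotype biological replicates, but the sources do not say whether they came from separate cultures. An error here is therefore the spread between these libraries, which may be technical. The study's strain list gives the IR-2 stock as a y and v mutant stock whose hairpin transgene, at the attP2 site, carries y+ and v+ as markers. It gives the IR hairpin at attP40, the IR-3 hairpin at VIE-260B, and w for the FruCOMB stock. Each hairpin or overexpression group is 1 line, so the transgene, its insertion site and the rest of the genome of that line cannot be told apart.

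Eye colour in the fly has a brown and a red component. Ommochromes, the brown pigments, are made from tryptophan through kynurenine, and drosopterins, the red pigments, are pteridines made from GTP. White is the shared half-transporter of the ATP-binding cassette G (ABCG) family, which pairs with Scarlet to load ommochrome precursors and with Brown to load pteridine precursors into pigment granules. White, Vermilion and several of the pteridine enzymes also work outside the eye, among others in the Malpighian tubules. Yellow and Ebony act in the cuticle, where Yellow is needed for black melanin and Ebony couples dopamine to beta-alanine for tan sclerotin. A gene-level count adds reads of a chromosomal locus and of a marker copy on a transgene, and the 2 sources cannot be told apart in these tables.

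The depth was 23415354 to 46840820 counts in the 10 libraries. Levels are in TPM rescaled by the trimmed mean of M-values (TMM), a length-corrected unit that can be compared between genes, and a difference from control is a log2 fold change from edgeR with its standard error (SE), fitted on the counts of the 4 libraries compared. The targeted gene fru stood at 2.26 and 2.34 in the control libraries and at 43.5 and 43.3 in the OE libraries. It was lower than control in the libraries labelled IR-3 (1.60 and 1.62) but higher in those labelled IR (3.66 and 3.55) and IR-2 (7.29 and 7.32). Total fru reads thus did not show a knockdown in these last 2 groups. Reads of the fru locus and of a hairpin against it cannot be told apart in these counts. At the protein level, the paper reports that Fru antibody staining of oenocytes was lost under fru RNAi. At the transcript level, it reports RT-qPCR in which 2 RNAi lines differed in knockdown efficiency. That RT-qPCR used whole-body knockdown with actin5c-Gal4, not the oenocyte driver. The sum of 5 oenocyte markers was 57220 and 57580 in control, 11600 and 11610 in IR, 71090 and 73220 in IR-2, 83290 and 84620 in IR-3, and 42810 and 43070 in OE. Most of each sum was Cyp4g1, at 53859 and 54203 in control, 8968 and 8951 in IR, and 8951 or more in every library. The sum thus mainly follows this 1 gene. Over all libraries Desat1 ranged from 1643 to 2460, FASN2 from 334 to 798, CG18609 from 131 to 801 and FASN3 from 7.49 to 431. The sum of 5 Malpighian tubule markers was 2.85 to 3.01 in control, 5.56 to 8.01 in the RNAi groups and 10.2 to 10.6 in OE, with none of the 5 at 0 in any library. The sum of 6 photoreceptor markers was 0.529 to 4.82 over all libraries, with Arr2 at 0 in 1 library and ninaC in 2. The sum of 5 muscle markers was 494 and 495 in control, 1031 and 1042 in IR, 970 and 1006 in OE, and 547 to 648 in IR-2 and IR-3, and that of 5 fat body markers was at most 396 in control, 322 to 402 in IR and OE, and 662 to 730 in IR-2 and IR-3. Neuron markers summed to 2.25 and 2.32 in control and 3.44 to 5.11 in the other groups. The sum of 7 male reproductive tract markers was 267 and 272 in control, 297 and 309 in IR, 244 and 266 in IR-2, 148 and 167 in IR-3, and 344 in both OE libraries. Hemocyte markers summed to 3.45 to 5.90 over all libraries. Gut markers split the replicates of IR-2 (48.1 and 387) and IR-3 (35.4 and 264). The part of these other tissues in the levels below was not tested, and in tissue pools fewer cells of a type and less RNA per cell cannot be told apart.

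**Figure D1:**
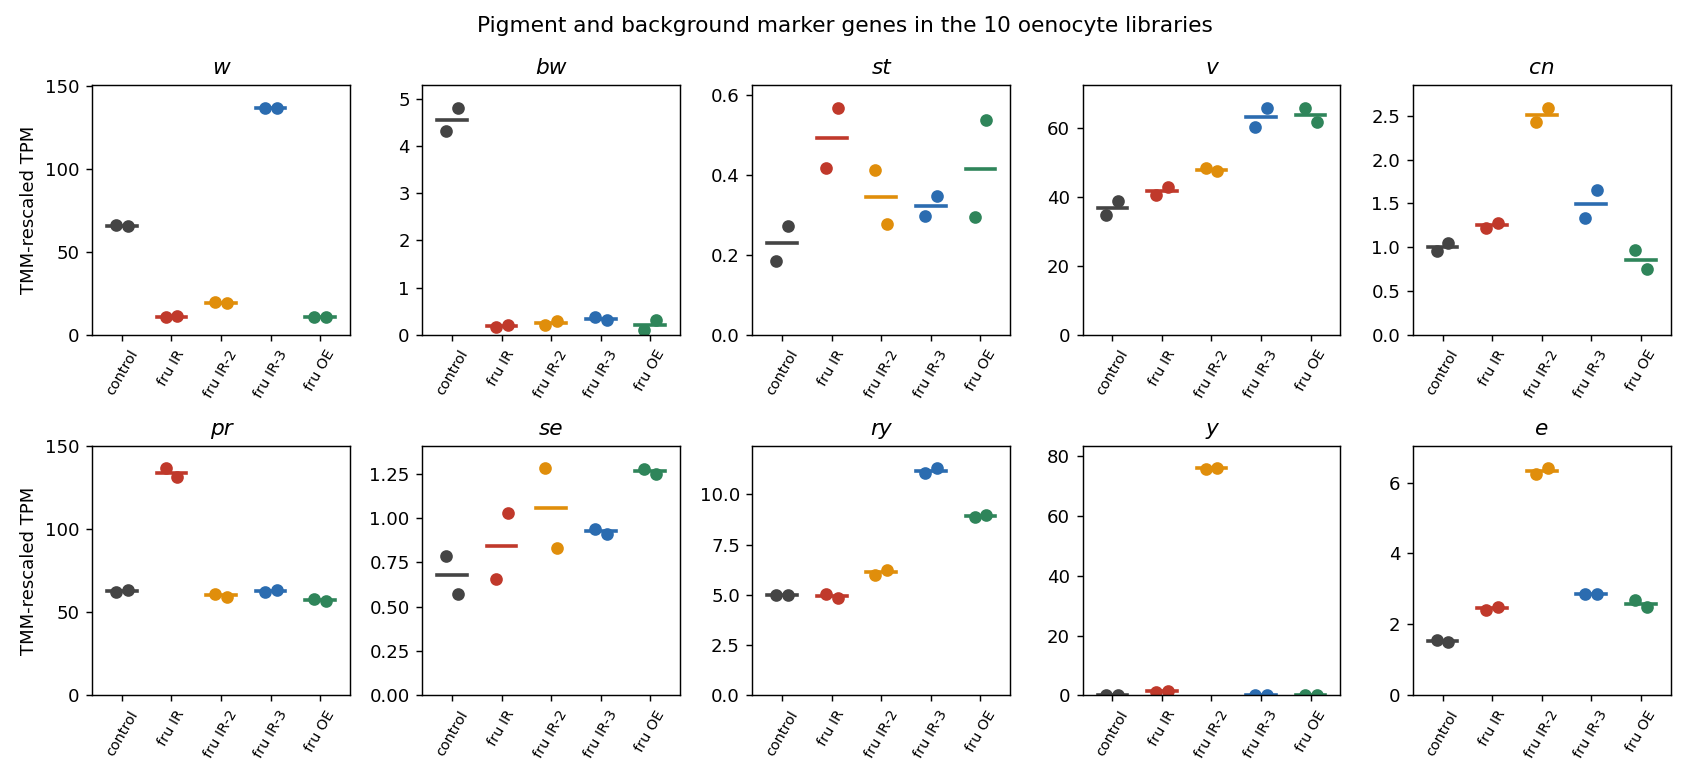
Level of each of the 10 genes (TMM-rescaled TPM, linear axis from 0, a scale of its own in each panel) in the 10 libraries, named by their labels. Points are libraries and bars are the mean of 2. The w level of IR-3 lies above control and that of IR, IR-2 and OE below it, bw is high in control alone, and y is high in IR-2.

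w, FBgn0003996, lies on the minus strand of chromosome X at 2790599 to 2796466 (BDGP6.54) and its span overlaps kirre on the other strand. Of w, bw and st it had the highest level. The control libraries had 66.0 and 65.3, those labelled IR 10.4 and 11.2, those labelled IR-2 19.5 and 19.1, those labelled IR-3 137.0 and 136.6, and the OE libraries 10.7 and 10.6. The 3 hairpin groups thus fell on both sides of control, and the groups ran from IR-3 over control and IR-2 down to IR and OE, which overlapped each other. The log2 fold change from control was -2.59 ± 0.037 (SE) in IR, -1.77 ± 0.033 in IR-2, 1.03 ± 0.020 in IR-3 and -2.75 ± 0.037 in OE. In level this was a mean 6.08-fold and 6.16-fold below control for IR and OE, 3.40-fold below for IR-2 and 2.08-fold above for IR-3. The overlapping gene kirre, a cell adhesion gene of the muscle founder cells, stayed between 0.771 and 1.61 in the 10 libraries, far under the level of w.

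bw, FBgn0000241, on the minus strand of 2R at 23527805 to 23538499, encodes the partner of White for pteridine precursors. The reference places a copy of the retrotransposon 412 (2R, 23529629 to 23537147, 7519 bp) within the span of bw, and the sequenced reference strain is known to carry a bw mutant allele. The control libraries had 4.32 and 4.82, from 279.6 and 391.6 expected counts, while all 8 other libraries lay between 0.105 and 0.366. The expected counts of bw were not whole numbers in any of the 10 libraries, so part of its reads were shared out in the quantification. The effect of this on its level was not tested. No other gene of the 10 separated the control from every other genotype by so wide a gap, at mean levels 24.9-fold (IR), 18.8-fold (IR-2), 13.4-fold (IR-3) and 22.3-fold (OE) below control. The log2 fold changes were -4.59 ± 0.16 in IR, -4.31 ± 0.17 in IR-2, -3.84 ± 0.14 in IR-3 and -4.48 ± 0.23 in OE. These 4 values share the 2 control libraries, so they are not independent of each other, and the low groups rest on 5.74 to 27.0 expected counts a library. Among the low groups IR-3 stood above IR-2, and the OE libraries (0.105 and 0.305) spanned both the IR-2 and the IR level. The gene mi, which overlaps bw on the plus strand, ranged from 1.80 to 3.76 with 3.04 and 3.14 in control, and did not show the separation of bw.

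st, FBgn0003515, on the plus strand of 3L at 16497651 to 16500460, encodes the partner of White for ommochrome precursors and was the lowest of the transporter genes in control. It had 0.184 and 0.272 there, 0.418 and 0.568 in IR, 0.412 and 0.276 in IR-2, 0.297 and 0.346 in IR-3, and 0.294 and 0.536 in OE. Every library outside the control was above both control libraries, but the 4 other genotypes overlapped their neighbours in order. The counts behind these levels were 9 to 57 a library, and the log2 fold change of 1.12 ± 0.36 in IR was the largest of the 4, against 0.45 ± 0.41 in IR-3. The 3 half-transporters thus had uneven levels, with w at 10.4 or more in all 10 libraries, st under 1 in all 10, and bw under 1 in the 8 outside control.

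The ommochrome enzyme genes v and cn had narrower ranges over the genotypes (1.73-fold and 2.93-fold) than w and bw (12.8-fold and 24.9-fold). v, FBgn0003965, on the plus strand of X at 10923972 to 10925631, encodes tryptophan dioxygenase, the entry step to kynurenine. It had 34.8 and 38.7 in control, 40.4 and 42.8 in IR, 48.3 and 47.4 in IR-2, 60.2 and 65.8 in IR-3, and 65.6 and 61.7 in OE. All 4 genotypes lay above control, with OE and IR-3 overlapping at the top. The log2 fold changes were 0.19 ± 0.051 in IR, 0.37 ± 0.057 in IR-2, 0.75 ± 0.062 in IR-3 and 0.66 ± 0.053 in OE. The IR-2 line, whose hairpin transgene carries v+, lay below IR-3 and OE. Whether reads of that v+ copy enter the level of v was not tested.

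cn, FBgn0000337, on the minus strand of 2R at 7782797 to 7785067, encodes kynurenine monooxygenase, which acts further down the same route. Its levels were 0.950 and 1.05 in control, 1.22 and 1.28 in IR, 2.42 and 2.59 in IR-2, 1.33 and 1.65 in IR-3, and 0.968 and 0.746 in OE. IR-2 stood above all other libraries, with a log2 fold change of 1.31 ± 0.19, and OE overlapped control (-0.38 ± 0.27). The counts were 35 to 105 a library.

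In the pteridine branch, pr, FBgn0003141, on the minus strand of 2L at 20073719 to 20075458, encodes pyruvoyl-tetrahydropterin synthase, which also serves the making of the cofactor tetrahydrobiopterin. In control its level was close to that of w, at 62.4 and 63.4, and it stood apart in 1 genotype, the libraries labelled IR, with 136.6 and 131.4. IR-2 had 61.2 and 59.3, IR-3 62.2 and 63.2, and OE 58.3 and 56.8. The log2 fold change was 1.10 ± 0.035 in IR, against -0.06 ± 0.040 in IR-2, -0.03 ± 0.039 in IR-3 and -0.25 ± 0.039 in OE. The gene bwa (brain washing, an alkaline ceramidase gene), which overlaps pr on the other strand, had 53.8 and 52.9 in control and was lower in all other groups, at 31.9 and 32.3 in IR and 20.0 to 21.2 in the rest. The counting is not stated to use strand, so reads of the shared stretch cannot be assigned to either gene with certainty.

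se, FBgn0086348, on the plus strand of 3L at 8520552 to 8521489, encodes the omega-class glutathione transferase that makes the drosopterin precursor pyrimidodiazepine. It ranged from 0.573 to 1.28 over the 10 libraries on 11 to 34 counts each, and every genotype overlapped its neighbour in the order of means. The largest log2 fold change was 0.79 ± 0.38, in OE. Its overlapping neighbour GstO2, a gene of the same enzyme class, stood at 84.9 to 134.6.

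ry, FBgn0003308, on the plus strand of 3R at 13032528 to 13038020, encodes xanthine dehydrogenase, which makes urate and a side product of the pteridine route. The control libraries had 5.004 and 4.997, and those labelled IR overlapped them at 5.06 and 4.84. IR-2 had 5.997 and 6.245, OE 8.87 and 8.98, and IR-3 11.05 and 11.30, and these 3 groups overlapped neither each other nor the control. The log2 fold changes were -0.01 ± 0.060 (IR), 0.29 ± 0.060 (IR-2), 1.13 ± 0.054 (IR-3) and 0.70 ± 0.055 (OE).

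Among the cuticle genes, y, FBgn0004034, on the plus strand of X at 356509 to 361245, had the widest range of the 10. The libraries labelled IR-2 had 76.0 and 76.0, from 3674 and 2841 counts. Those labelled IR had 1.26 and 1.46 (86 and 138 counts), the control libraries 0.252 and 0.049 (12 and 3 counts), those labelled IR-3 0.089 and 0.168 (5 and 8 counts), and the OE libraries 0.053 and 0 (2 and 0 counts). The line with high y was the one whose hairpin transgene carries y+, and whether reads of that copy enter the level was not tested. The mean level of IR-2 was 505-fold that of control, a ratio that rests on the 12 and 3 control counts, and the log2 fold change was 9.04 ± 0.18. Without control replicate 1 it was 10.47, and that of IR went from 3.26 ± 0.39 to 4.72. In IR-3 and OE y did not pass the filter on low counts, and the 0 of 36378216 counts in OE replicate 2 allows up to 0.0825 CPM, for counting error only. CG32816, which overlaps y on the minus strand, was 0.256 to 1.22 in the 10 libraries, with 0.256 and 0.717 in IR-2.

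e, FBgn0000527, on the minus strand of 3R at 21229839 to 21237177, encodes the enzyme that joins beta-alanine to dopamine. It had 1.561 and 1.504 in control and was above it in all 4 genotypes, at 2.40 and 2.50 in IR, 2.87 and 2.86 in IR-3 and 2.68 and 2.48 in OE. IR-2 was again the group set apart, with 6.23 and 6.40. The log2 fold changes were 0.69 ± 0.11 (IR), 2.04 ± 0.089 (IR-2), 0.88 ± 0.11 (IR-3) and 0.62 ± 0.12 (OE), and the IR and OE levels overlapped. y, e and cn thus had their highest level in the libraries labelled IR-2, w and ry in IR-3, pr and st in IR, v and se in OE, and bw in control.

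**Figure D2:**
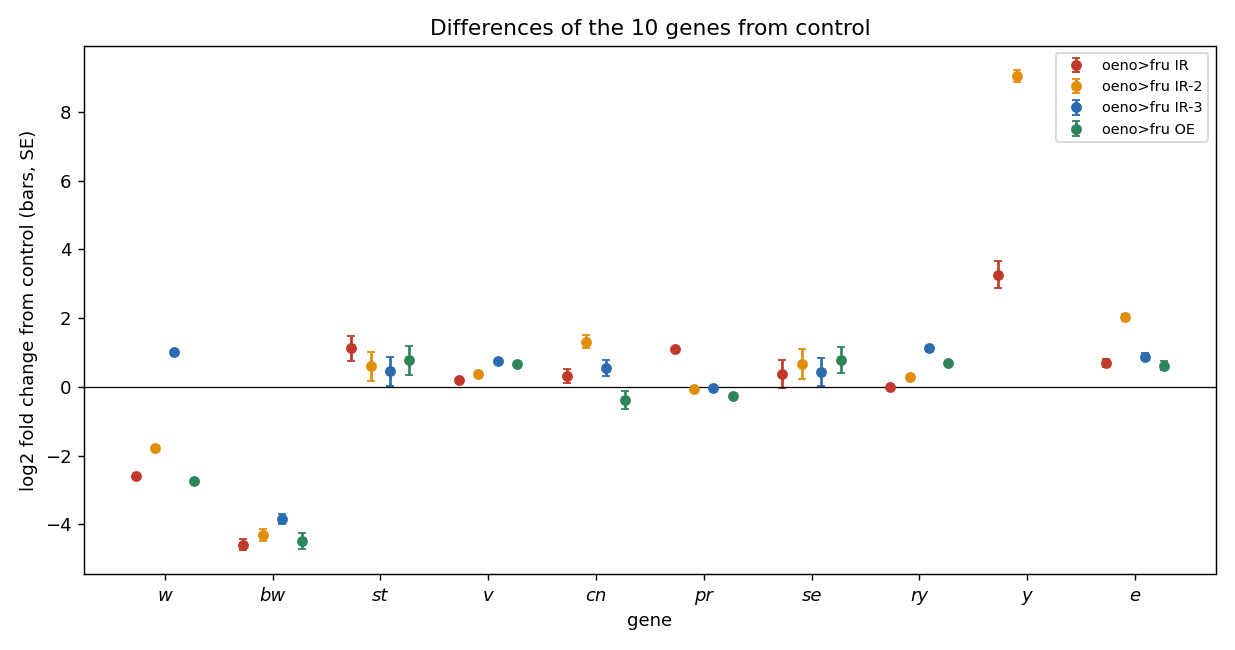
Log2 fold change from control (y axis) of each of the 10 genes in the 4 groups, named by their labels. Points are edgeR estimates with bars of 1 SE, and y is shown for IR and IR-2 alone. bw lies between -4.59 and -3.84 in all 4 groups, w lies at 1.03 in IR-3 and below 0 in the others, and y reaches 9.04 in IR-2.

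Counted over the 10 genes, 7 passed an adjusted p under 0.05 in edgeR in IR (10 tested), 7 in IR-2 (10 tested), 5 in IR-3 (9 tested) and 6 in OE (9 tested). Over all genes tested the share past this threshold was 62.3% in IR, 49.9% in IR-2, 52.7% in IR-3 and 65.0% in OE, and since the set was selected on these contrasts nothing is read from its counts. Both libraries of a group lay above both control libraries for 6 genes in IR, 7 in IR-2, 7 in IR-3 and 5 in OE, and below them for 2, 3, 1 and 3. Over all genes tested this was so for 39.3%, 36.8%, 39.0% and 48.6% above and for 40.9%, 39.5%, 37.2% and 34.1% below, and nothing is read from these counts either. The range over the genotypes was 1.73-fold for v, 1.86-fold for se, 2.16-fold for st, 2.26-fold for ry, 2.33-fold for pr, 2.93-fold for cn, 4.12-fold for e, 12.8-fold for w and 24.9-fold for bw.

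Setting the hairpin lines against each other leaves the control libraries out. w was 3.64 ± 0.031 higher on the log2 scale in IR-3 than in IR, 2.81 ± 0.026 higher in IR-3 than in IR-2, and 0.81 ± 0.050 higher in IR-2 than in IR. y was 5.77 ± 0.059 higher in IR-2 than in IR, and its value in IR-3 minus IR-2 was -9.19 ± 0.12. For pr the difference was -1.17 ± 0.037 in IR-2 minus IR and -1.12 ± 0.035 in IR-3 minus IR, against 0.04 ± 0.039 in IR-3 minus IR-2. In w and y each of the 3 lines stood apart from the others by more than its replicates differed, whereas in pr the libraries labelled IR stood apart and the difference between IR-2 and IR-3 was about its SE. For bw, whose level separated control from the rest, the differences between lines were 0.28 ± 0.36 (IR-2 minus IR), 0.77 ± 0.32 (IR-3 minus IR) and 0.47 ± 0.32 (IR-3 minus IR-2).

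The genes next to the 10 on the chromosome were compared with control to see whether a difference extended along the chromosome. The 5 nearest tested genes on each side of each locus made 100 neighbours, and 60 (IR), 56 (IR-2), 55 (IR-3) and 63 (OE) of them passed an adjusted p under 0.05 in edgeR, beside the 62.3%, 49.9%, 52.7% and 65.0% of all genes. Their median log2 fold change was -0.04, 0.06, -0.04 and -0.01. The 10 neighbours of w had log2 fold changes of -1.21 to 10.11 in IR, -1.37 to 1.74 in IR-2, -0.90 to 1.15 in IR-3 and -0.59 to 0.95 in OE, so in IR-2 and OE none moved as far as w, in IR CG14422 moved farther, and in IR-3 the 1.03 of w lay inside the range. Beside bw they were -0.82 to 0.97 in IR, -0.26 to 1.21 in IR-2 and -0.63 to 1.49 in IR-3, and in OE -1.21 to 2.18, with none as low as bw. Beside y in IR-2 they were -0.89 to 0.99, and beside pr in IR -0.76 to 1.00.

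Changes of 4-fold or more among the neighbours were few and lay at single genes. CG14422, the fourth tested gene on the right of w with its start 153 kb away, had 284 and 291 in the libraries labelled IR and at most 1.31 in the other 8, a log2 fold change of 10.11 ± 0.10 (adjusted p = 1.6e-17, edgeR). Its control value rests on 11 and 2 counts, and the log2 fold change was 11.91 without control replicate 1 and 9.18 without control replicate 2. Cyp4g1, the cytochrome P450 of hydrocarbon synthesis and the third tested gene after y, had a log2 fold change of -2.58 ± 0.014 in IR (adjusted p = 9.6e-20). In OE it fell less (-0.55, 1.7e-12), and it rose in the other hairpin groups, by 0.33 ± 0.03 in IR-2 (5.2e-05) and 0.54 ± 0.038 in IR-3 (5.4e-06). CG43373 beside st rose in IR by 2.30 ± 0.68 on 1 to 17 counts a library (adjusted p = 0.0098). That call was lost without control replicate 1 (1.89), IR replicate 1 (2.23) or IR replicate 2 (2.40), and the value was 3.08 without control replicate 2. In IR-3, CG43182 beside y rose by 3.25 ± 0.69 on 18 and 12 counts against 2 and 1 (adjusted p = 0.0043), with 3.94 without control replicate 1 and 2.70 without control replicate 2. In OE, CG31157 beside ry, CG1941 beside cn and ETHR, the ecdysis triggering hormone receptor gene beside e, fell, with log2 fold changes of -4.97 (adjusted p = 2.3e-15), -2.82 (1e-11) and -2.07 (1.8e-08), while CG3906 beside bw and CG12824 beside cn rose by 2.18 and 2.11 (0.0017 and 0.0013). Smaller falls of CG1941 and ETHR were also called in IR (-0.50 and -1.35), IR-2 (-1.08 and -1.28) and IR-3 (-1.66 and -0.98). CG31157 had -0.57 in IR, 0.16 in IR-2 and 0.10 in IR-3. CG3906 rests on 38 and 65 counts against 16 and 4, with 3.65 without control replicate 1 and 1.36 without control replicate 2, and CG12824 on 30 and 51 against 3 and 14, with 1.53 and 3.38. Also in OE, ase, a proneural gene of the achaete-scute complex beside y, had a log2 fold change of -3.07 ± 0.66 on 2 and 2 counts against 19 and 13 (0.0014). In IR-2 no neighbour changed 4-fold.

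**Figure D3:**
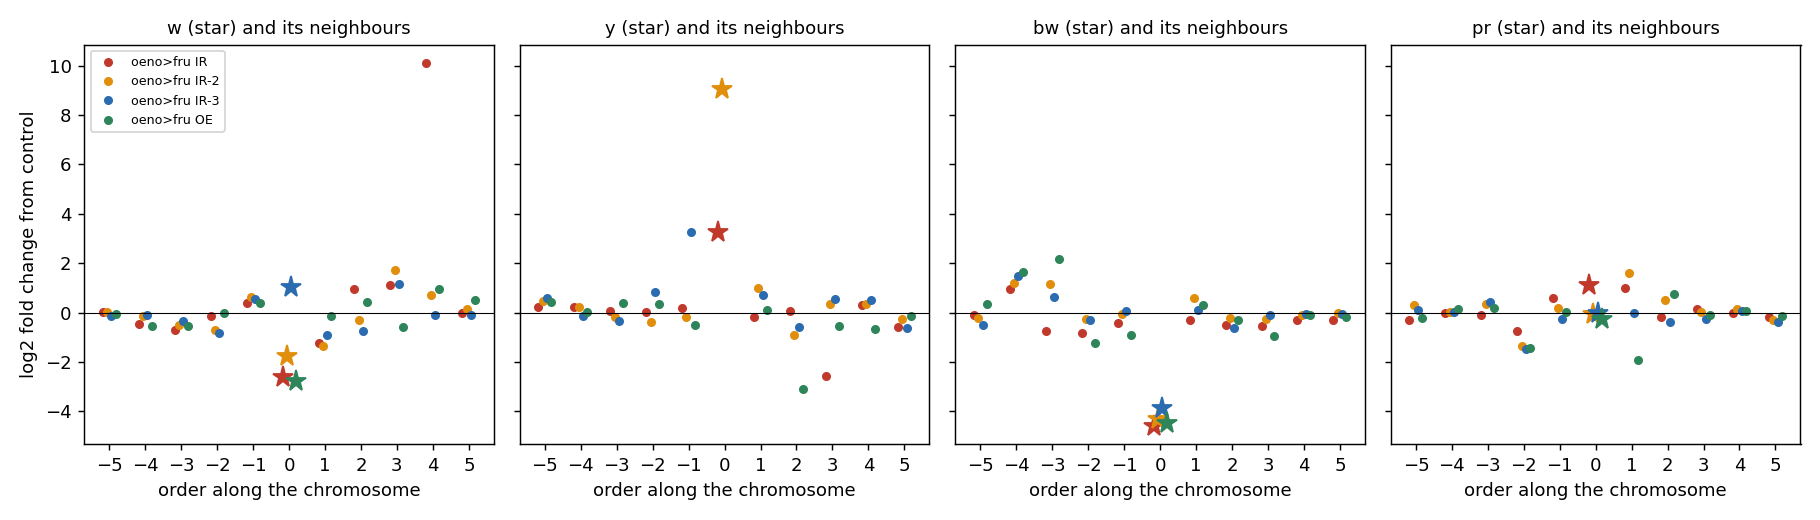
Log2 fold change from control (y axis) of w, y, bw and pr (stars) and of the 5 nearest tested genes on each side (points), by order along the chromosome (x axis, 0 is the named gene), in the 4 groups named by their labels. The stars of bw and w in OE lie below every neighbour shown in their panel for that group, and the point at 10.11 is CG14422.

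The pigment pathways beyond the 10 were followed with 5 lists of 54 genes, of which 51 were tested (the yellow family genes yellow-e2, yellow-e3 and yellow-g2 passed the filter in no comparison). Over all lists 23 genes rose and 18 fell in IR, 19 and 12 in IR-2, 18 and 14 in IR-3, and 22 and 20 in OE. In percent these are 45.1 and 35.3 in IR, 37.3 and 23.5 in IR-2, 35.3 and 27.5 in IR-3, and 43.1 and 39.2 in OE. Over all genes 31.7% rose and 30.6% fell in IR, 26.0% and 23.9% in IR-2, 26.0% and 26.7% in IR-3, and 31.4% and 33.7% in OE. All calls are edgeR adjusted p-values under 0.05 over all genes tested, the p given in brackets after a log2 fold change is that adjusted p, and the 4 comparisons share the control libraries. A gene is named for the comparisons in which its change was among the largest of its list, so it may also have passed in comparisons that are not given.

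The ABCG transporters, the family of w, bw and st, included the pathway gene with the largest fall in each comparison. CG5853, a family member without a settled function, had 631 and 628 in control, 140 and 136 in IR, 61.4 and 60.3 in IR-2, 86.3 and 82.6 in IR-3, and 23.5 and 24.0 in OE. It fell in all 4, with log2 fold changes of -2.18 in IR (adjusted p = 9.5e-18), -3.37 in IR-2 (3.5e-11), -2.92 in IR-3 (5.4e-11) and -4.86 in OE (1.9e-18). Of the 12 genes 8 fell and 3 rose in IR, 5 and 5 in IR-2, 5 and 4 in IR-3, and 8 and 2 in OE, with median log2 fold changes of -0.39, -0.05, -0.10 and -0.81 beside -0.01, -0.02, -0.01 and 0.04 over all genes. The falls in OE include CG17646 (-0.09, 0.0013), whose deposited levels were higher in OE (135.1 and 135.0) than in control (133.4 and 131.1). Atet also fell in all 4, with -0.97 in IR (9.5e-12), -1.99 in IR-2 (1.2e-08), -1.68 in IR-3 (3.7e-09) and -1.07 in OE (8.7e-11). CG4822 did so too, with -1.39 in IR (1.3e-15), -0.86 in IR-2 (1.6e-08), -0.72 in IR-3 (2.8e-08) and -2.99 in OE (3.1e-16). Other members went both ways. CG9664 fell in IR (-1.42, 2.5e-12) and OE (-0.56, 1.2e-07) and rose by 0.39 ± 0.040 in IR-2 (0.00011) and 0.38 ± 0.035 in IR-3 (2.9e-05). CG31689 fell in IR (-1.01, 4.1e-14) and OE (-1.84, 2.3e-15) and rose by 0.45 ± 0.020 in IR-2 (7.5e-07). Smaller rises were those of CG11069 (0.71 ± 0.16, 0.0014) and CG31121 (0.69 ± 0.070, 1e-06) in IR, CG31121 in OE (0.68 ± 0.072, 3.8e-06), and CG9663 in IR-2 (0.49 ± 0.063), IR-3 (0.54 ± 0.062) and OE (0.35 ± 0.054), while CG9663 fell in IR (-0.48, 1.2e-05).

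The cuticle tanning list, which holds the dopamine and melanin genes around y and e, rose more often than it fell in each comparison. Of its 16 tested genes 11 rose and 1 fell in IR, 6 and 1 in IR-2, 6 and 4 in IR-3, and 13 and 0 in OE, with median log2 fold changes of 0.73, 0.46, 0.42 and 0.65. In IR-3 the alternatives other than leaving out a library gave 5 to 6 rises and 1 to 5 falls. yellow-c, a yellow family member, had 5.45 and 3.54 in control and 81.6 and 81.4 in OE, a rise of 4.09 ± 0.094 (adjusted p = 2e-12), and it rose by 1.44 ± 0.13 in IR (4.2e-07), 1.72 ± 0.17 in IR-2 (9.3e-05) and 1.54 ± 0.16 in IR-3 (6.9e-05). tan (t), whose enzyme splits the product of Ebony back into dopamine and beta-alanine, rose by 1.46 ± 0.073 in IR (4.4e-10), 1.45 ± 0.065 in IR-2 (7.5e-07), 1.17 ± 0.070 in IR-3 (1.7e-06) and 1.01 ± 0.071 in OE (7.9e-08). speck, an arylalkylamine N-acetyltransferase gene, went the other way in the hairpin groups, falling in IR (-0.57, 3.7e-07), IR-2 (-0.64, 3.7e-05) and IR-3 (-0.51, 0.00038), with 24.4 and 24.6 in control and 16.5 to 18.8 in these groups. In OE it had 54.9 and 54.6 and rose by 0.93 ± 0.042 (1.3e-09). stw, a laccase gene, rose by 0.42 ± 0.075 in IR (0.00023) and fell in IR-3 (-0.39, 0.0094), a call lost without control replicate 1 (-0.29) or IR-3 replicate 2 (-0.29), with which the falls in that group went from 4 to 1 and 2. yellow-d2 rose by 1.04 ± 0.30 in OE (0.0099), a call lost without control replicate 1 (0.89) or OE replicate 2 (0.64).

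**Figure D4:**
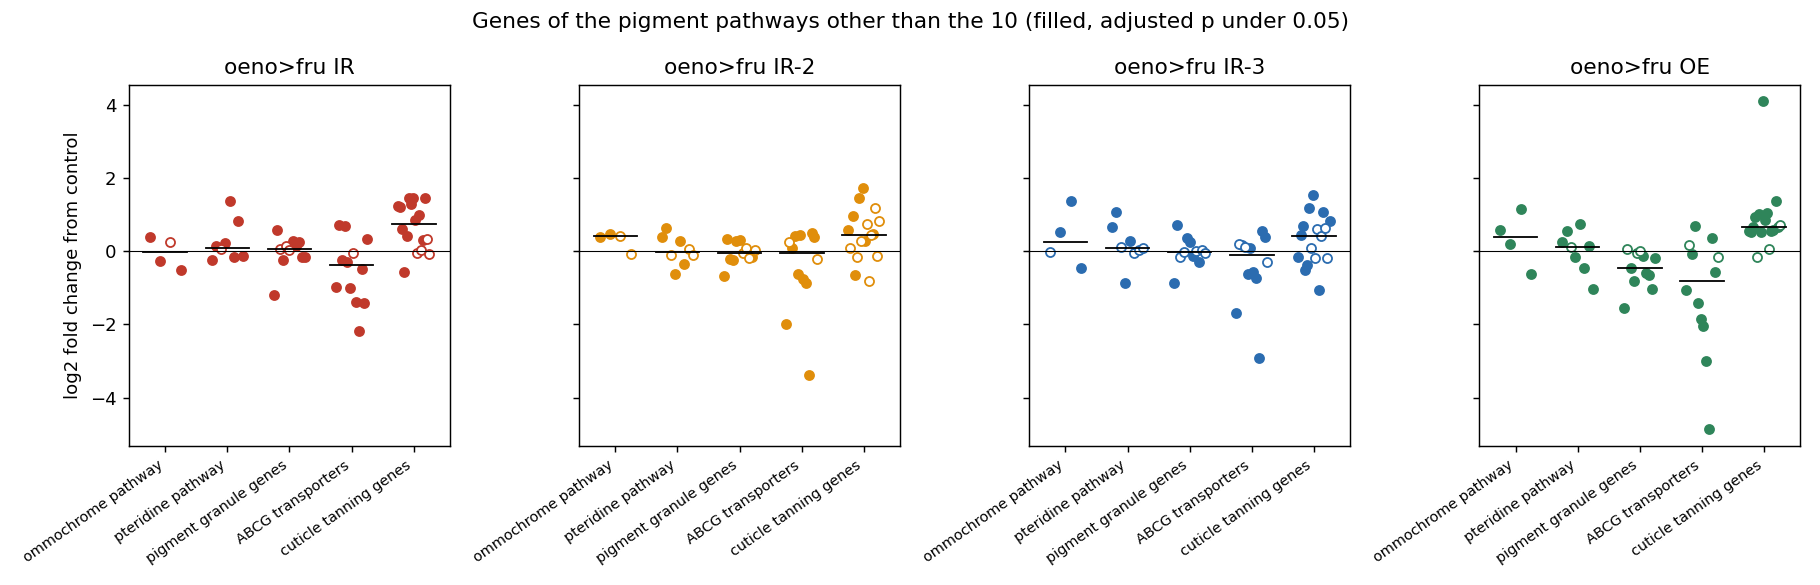
Log2 fold change from control (y axis) of the tested genes of the 5 pathway lists in the 4 groups named by their labels. Filled points have an edgeR adjusted p under 0.05, open points do not, and bars are list medians. The medians of the cuticle tanning genes run from 0.42 to 0.73, and that of the transporters in OE is -0.81.

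The genes for trafficking to pigment granules and other lysosome-related organelles showed no common direction in the hairpin groups, and in OE 8 of 11 fell and none rose. Of the 11 genes 4 rose and 4 fell in IR, 3 and 4 in IR-2, 3 and 3 in IR-3, and 0 and 8 in OE, where the median was -0.46. The falls in OE numbered 6 to 8 without single libraries, with 0 rises. Under the other alternatives there were 6 to 8 falls and 0 to 2 rises. Among the 8, rb (-0.18) had deposited levels in OE (13.6 and 12.3) that overlapped control (13.2 and 13.4). Rab32, the small GTPase of the granule, had 61.4 and 61.8 in control and 23.5 to 37.2 in the other 8 libraries, and fell in IR (-1.20, 2e-12), IR-2 (-0.68, 6.3e-06), IR-3 (-0.88, 1.3e-07) and OE (-1.55, 4.9e-11). p (pink), a gene for a subunit of a lysosome-related organelle complex, fell in OE (-1.04, 8.7e-10). ca (claret), the exchange factor of Rab32, rose by 0.57 ± 0.058 in IR (9.2e-07), 0.34 ± 0.065 in IR-2 (0.0034) and 0.72 ± 0.065 in IR-3 (2.3e-05). Of the adaptor complex AP-3, carmine (cm) fell in IR (-0.23, 0.010) and IR-2 (-0.24, 0.046) and orange (or) in IR-3 (-0.30, 0.025) and OE (-0.64, 3.2e-05) but rose by 0.26 ± 0.073 in IR (0.0063), while garnet (g) rose in IR-2 (0.30 ± 0.070, 0.0091). Of the vesicle tethering genes, lt rose in IR (0.29 ± 0.036, 7.2e-06) and fell in IR-3 (-0.12, 0.049) and OE (-0.14, 0.0089, but 0.03 when scaled by library size alone), and dor rose in IR-3 (0.37 ± 0.081, 0.0052) and IR-2 (0.28 ± 0.097, 0.043). The calls of lt in IR-3 and of dor in IR-2 were each lost without any of 3 single libraries (-0.13 to -0.07 and 0.18 to 0.30), and that of lt in OE without OE replicate 2 (-0.10). The calls of cm, g and, in IR-3, or were each lost without at least 1 library, with log2 values of -0.16 (cm in IR) and -0.17 (cm in IR-2) without control replicate 2, -0.32 (or) and 0.20 (g) without control replicate 1, and -0.19 (or) without IR-3 replicate 2. Without control replicate 1 there were 1 rise and 1 fall in IR-2 and 1 fall in IR-3, and without IR-3 replicate 2 also 1 fall.

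Of the 8 further pteridine genes 4 rose and 3 fell in IR, 3 and 2 in IR-2, 3 and 1 in IR-3, and 4 and 3 in OE. Sptr, sepiapterin reductase, followed pr in the libraries labelled IR with a rise of 1.37 ± 0.067 (3.3e-10), from 9.66 and 9.79 in control to 24.7 and 25.1, but it also rose in OE (0.75 ± 0.079, 4e-06), IR-2 (0.29 ± 0.087, 0.025) and IR-3 (0.28 ± 0.085, 0.022). The calls in IR-2 and IR-3 were each lost without any of 3 single libraries (0.26 to 0.30 and 0.21 to 0.29). cl, a thioredoxin-like gene of drosopterin synthesis, rose in IR by 0.83 ± 0.032 (2e-11). Pu, the GTP cyclohydrolase at the head of the route, rose by 0.23 ± 0.033 in IR (3.4e-05) and fell in IR-2 (-0.62, 8.1e-06), IR-3 (-0.88, 3.9e-06) and OE (-0.16, 0.0022, but 0.01 when libraries were scaled by their size alone), whereas Hn, phenylalanine hydroxylase, rose by 0.62 ± 0.034 in IR-2 (2.6e-06), 1.07 ± 0.028 in IR-3 (8.7e-09) and 0.56 ± 0.035 in OE (2.7e-08). DhpD, dihydropterin deaminase, fell in IR (-0.24, 7.4e-05) and rose in IR-2 (0.39 ± 0.038, 7.6e-05) and IR-3 (0.67 ± 0.040, 1.6e-06). mal, the sulfurase that activates the molybdenum cofactor of Rosy, fell in OE (-1.04, 5.5e-08), where ry was above control. cin, for the synthesis of that cofactor, fell in IR (-0.17, 0.023), IR-2 (-0.36, 0.0017) and OE (-0.45, 4.8e-05). Its call in IR was lost without control replicate 2 (-0.14), IR replicate 1 (-0.17) or IR replicate 2 (-0.15), each of which left 1 fall in the list.

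Of the 4 further ommochrome genes 1 rose and 2 fell in IR, 2 and 0 in IR-2, 2 and 1 in IR-3, and 3 and 1 in OE. KFase, kynurenine formamidase between Vermilion and Cinnabar, rose by 0.39 ± 0.11 in IR (0.0072), 0.40 ± 0.13 in IR-2 (0.031) and 0.59 ± 0.11 in OE (0.00050), in level from 5.78 and 5.69 in control to 8.17 and 9.04 in OE. Kyat, kynurenine aminotransferase, which leads away from the pigment, fell in IR (-0.26, 1.9e-06) and rose by 0.47 ± 0.024 in IR-2 (1.6e-06), 0.53 ± 0.022 in IR-3 (1.6e-07) and 0.19 ± 0.027 in OE (6.1e-05). kar, a transporter-like gene, fell in IR (-0.52, 1.7e-08), IR-3 (-0.47, 1.7e-05) and OE (-0.63, 1.8e-08). The call of KFase in IR-2 was lost without control replicate 1 (0.32), control replicate 2 (0.47) or IR-2 replicate 1 (0.34), each of which left 1 rise, and 1 rise was left in IR-3 without control replicate 2.

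The genes whose pattern was most like that of w, bw, y or e were looked for among 10234 genes by the Pearson correlation of log2 CPM over the 10 libraries, in which the 2 libraries of a genotype are not independent points. For w they were Rpn1 (r = 0.9882), a proteasome subunit gene with mean levels of 65.3 (IR) to 126 (IR-3), eco (0.9863), a cohesin acetyltransferase gene, and CG7530 (0.9826). For bw they were CG3829 (0.9768), with 206 in control and 46.0 to 66.3 in the other genotypes, ATP8B (0.9760), a phospholipid flippase gene, and Mco4 (0.9742), a multicopper oxidase gene with 6.08 in control and 0.105 to 0.286 elsewhere. For y they were RpS3 (0.9868), a ribosomal protein gene, JMJD5 (0.9822) and CG32259 (0.9816), of which CG32259 had a mean of 32.6 in IR-2 and 1.32 to 5.23 elsewhere and RpS3 2700 in control and 3630 in IR-2. For e they were LpR2 (0.9791), a lipophorin receptor gene, CG10467 (0.9755) and ScsbetaA (0.9703), a succinyl-CoA synthetase gene, with CG10467 at 38.0 and 37.6 in IR-2 and 11.4 and 10.7 in control. Of these 12 genes CG3829 shares the arm 2R with bw, and LpR2 and ScsbetaA share 3R with e.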

How the data were processed

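Poly(A) RNA of 10 oenocyte libraries was trimmed by the authors with fastp 0.22.0, mapped with Bowtie2 (version not given in the sources used here) to the dme6 reference genome and quantified per gene with RSEM 1.2.31. The deposited tables hold the authors' expected counts, their TPM, and that TPM rescaled between libraries by TMM factors, a normalized signal. Expected counts were rounded. Each group was compared with control, and each hairpin line with the others, by edgeR 4.0.16 (quasi-likelihood, TMM, filterByExpr, R 4.3.3) on the 4 libraries concerned, with Benjamini-Hochberg adjustment over the 11464 to 11729 genes tested against control. Folds of levels use the deposited scale, which was set over all libraries, and can differ from the fitted ones. In OE a small difference could take the other sign, as for CG17646.

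The 10 genes and all lists were chosen with earlier results of these data known. Besides the 10, the text names per list and comparison up to 2 called genes with the largest rise and 2 with the largest fall (at least 50 counts on average in the higher group), neighbours called at 4-fold or more, and the 3 genes most like a member whose range was at least 4-fold. speck in OE and some further comparisons of named pathway genes were added after their values were seen. Gene positions come from the BDGP6.54 annotation, to which 13983 of 13986 identifiers matched. Alternatives were DESeq2 1.42.0, no TMM, other low-count filters, limma 3.58.1 on log2 TMM-rescaled TPM, a replicate block and leaving out each library. The fits were checked on simulated data. With 2 libraries against 2, a permutation test cannot go below p = 0.333. Sequences were not used here.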

Additional observations from a re-analysis of the deposited data

Results flagged for a closer look

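Both libraries of 1 hairpin line lay above control and both of another below it for the genes given here. They were taken from the 10 genes, whether or not they passed the edgeR threshold, and from the named pathway genes that passed it in both lines. For w the libraries labelled IR-3 were above control and those labelled IR and IR-2 below it, and the direct log2 differences were 3.64 (IR-3 minus IR) and 2.81 (IR-3 minus IR-2). For pr, IR was above and IR-2 just below control (59.3 and 61.2 against 62.4 and 63.4), a log2 difference of -1.17 (IR-2 minus IR). The log2 fold change of pr from control in IR-2, -0.06 ± 0.040, did not pass the threshold. These genes belong to the set chosen with its values in view, so no test of their difference is given.

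For the pathway genes the difference between lines is given with its edgeR p adjusted over all genes. Against IR, CG31689 was 1.46 ± 0.026 higher in IR-2 (adjusted p = 1.6e-08) and 1.12 ± 0.023 in IR-3 (5.2e-09), CG9663 0.96 ± 0.067 (1.7e-05) and 1.03 ± 0.065 (3.5e-06), and CG9664 1.80 ± 0.043 (7e-08) and 1.82 ± 0.041 (9.4e-09). DhpD was 0.62 ± 0.035 higher in IR-2 (5.2e-06) and 0.92 ± 0.038 in IR-3 (3e-07), and Kyat 0.72 ± 0.028 (7.8e-07) and 0.81 ± 0.024 (4.5e-08), also against IR. The other way round, Pu differed by -0.86 ± 0.036 in IR-2 minus IR (1.1e-06) and -1.10 ± 0.058 in IR-3 minus IR (1.3e-06). In IR-3 minus IR the difference was -0.39 ± 0.044 for lt (0.00012), -0.55 ± 0.088 for or (0.00095) and -0.79 ± 0.075 for stw (4.6e-05). Against control, the falls of DhpD and Kyat in IR were lost when libraries were scaled by their size alone (-0.03 and -0.05).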

How the results depend on the processing

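Of 739 log2 fold changes of the 10 genes under the alternatives, 565 moved by less than the replicate SD, 172 by more, and 2 that had passed the edgeR threshold turned: v and ry in IR-2 minus IR became -0.19 and -0.09 when libraries were scaled by size alone. That scaling moved the median of all genes to 0.21 (IR), -0.18 (IR-2), -0.10 (IR-3) and 0.21 (OE), and the share of higher among called genes from 50.9%, 52.1%, 49.3% and 48.2% to 72.9%, 31.7%, 38.0% and 61.2%. Under it 10 pathway genes fell in IR (18 with TMM), 12 rose and 21 fell in IR-2 (19 and 12), cin, mal and p in IR went to 0.05, 0.08 and 0.04, CG31689 in IR-3 to -0.00, and Pu and lt in OE to 0.01 and 0.03. With DESeq2 in IR-3, 9 pathway genes fell (14 in edgeR) and 36 neighbours passed (55). Leaving out 1 library gave 9 to 14 pathway genes that fell in IR-3, 9 without control replicate 1. The cause was not tested. A pseudocount of 1 shrank bw in IR from -4.59 to -2.23 and y in IR-2 from 9.04 to 6.07, since it exceeds the low level of both.

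The members called ranged over the other alternatives from 5 to 9 in IR, 6 to 7 in IR-2, 5 to 6 in IR-3 and 5 to 7 in OE, and without single libraries from 5 to 7, 7 to 7, 5 to 5 and 6 to 7. Of 1089 values of named pathway genes, in each comparison where they had passed, 991 kept direction and call under alternatives, 92 lost the call and 6 reversed, and of 104 of named neighbours 98 kept both and 6 lost the call, all of CG43373. The labels do not tie replicate numbers to a shared animal, batch or day. Correlations of deviations between same-numbered libraries ran from -0.02 (IR with OE) to 0.47 (IR-2 with IR-3). The gut marker sum was lower in replicate 1 in every group except the control. With the replicate block the members called stayed at 7 (IR), 7 (IR-2), 5 (IR-3) and 6 (OE). st, se, the low groups of bw and y outside IR and IR-2 rest on few counts, which limits the precision of their differences.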
